A study of Danio rerio with 30 samples.

Results

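The comparison described here is copper given on top of chlorpyrifos at a level of 0.6: 3 arrays of zebrafish exposed to chlorpyrifos 0.6 with copper 0.25 (CPF 0.6 + Cu 0.25, called the mixture), against 3 arrays of zebrafish exposed to chlorpyrifos 0.6 with no copper (CPF 0.6). The 6 arrays were chosen by their treatment label, out of 30 arrays in the series, and no measured value entered the choice. Chlorpyrifos is an organophosphate insecticide, and both groups received it at the same level. By label the groups differ in copper alone, but their arrays also fall differently over the batches described below. The fish were 1-year-old adults of the AB strain, and the series holds 10 treatment groups of 3 arrays each. No unit of concentration stands in the labels or the design text. The labels name the tissue as olfactory rosettes in one field and as rosettes together with olfactory bulbs and telencephalons in another. The design text counts 30 animals exposed in groups of 3, as many as there are arrays, but no label says that each array holds a single fish. Every p-value therefore measures the spread between arrays, part of which may be technical. If the 3 fish of a treatment were exposed together, that spread leaves out differences between exposures, which then cannot be told apart from the treatment.

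The olfactory rosette of a fish is an epithelium of sensory neurons that lie open to the water, together with supporting, mucous, ciliated and basal cells, and the sensory neurons are replaced from the basal cells throughout life. Odour binding to a receptor on a sensory neuron activates a G protein, and the axon of the neuron runs to the olfactory bulb. Dissolved copper is known as a toxicant of fish olfactory sensory neurons, while the active product of chlorpyrifos blocks acetylcholinesterase, the enzyme that breaks down acetylcholine at synapses.

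Expression was measured on Affymetrix zebrafish arrays, and all values below are the deposited log2 values. Of 15502 probe sets that were not array controls, 10531 lay above a log2 value of 4 on at least 3 arrays of the series and were tested with limma, and they stand for 6448 named genes. Array medians ranged from 5.53 to 5.63 (log2). Correlations of array pairs over the tested probe sets were 0.982 to 0.992 within the mixture, 0.969 to 0.982 within CPF 0.6, and 0.968 to 0.991 between both groups. The sample titles fall into 3 date groups, called title batches here. The mixture had 1 array in each of the 3, while CPF 0.6 had 2 arrays in batch 1, 1 in batch 2 and none in batch 3, and the fit held the batch as a term. Markers of both labelled tissues were present: the bulb and telencephalon neuron list had 13 measured genes, among them the forebrain gene tbr1b at 10.46, 10.50 and 10.56 in the mixture and 10.62, 10.29 and 10.64 in CPF 0.6. None of the 5 pituitary genes and 1 of the 14 skeletal muscle genes on the array lay above the filter.

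No probe set passed an adjusted p of 0.05 between the mixture and CPF 0.6 (limma with Benjamini-Hochberg adjustment, 0% of 10531), and the smallest adjusted p was 0.0629. At an unadjusted p under 0.05 there were 654 probe sets, 6.21% of those tested, of which 249 (2.36%) were higher and 405 (3.85%) lower in the mixture. All 3 mixture arrays lay above all 3 CPF 0.6 arrays in 478 probe sets (4.54%) and below them in 591 (5.61%). The zero count rested on the array set and the batch term: 17 probe sets passed without the batch term, 18 with the batch as a random block, 43 without CPF 0.6 replicate 3, 17 without CPF 0.6 replicate 1, and 128 when arrays were weighted by their scatter. At an adjusted p of 0.1, a threshold added after the data were seen, 21 probe sets qualified (0.199%), 19 of them lower (0.18%) and 2 higher (0.019%) in the mixture. In what follows no gene is said to have changed in this pair, and values are given instead.

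The named genes with the smallest p-values were ssh2a, sult2st1, tfpia, abhd2b, ptp4a3a, gramd1c, cdkn1bb and calb2a. The first described here are the cytosolic sulfotransferase genes sult2st1 and sult2st2, whose enzymes attach sulfate to steroids and related molecules in zebrafish. For sult2st1 the mixture arrays read 8.78, 9.23 and 9.25, against 11.54, 11.52 and 9.97 in CPF 0.6. All 3 mixture arrays were below all 3 CPF 0.6 arrays, with CPF 0.6 replicate 3 standing between the mixture and the other 2 arrays of its group. The fitted difference was -1.95 ± 0.38 (log2, SE), a 3.86-fold lower level, at an adjusted p of 0.0855 in limma, and it was -1.51 within title batch 1 and -2.29 within batch 2. Its neighbour in function, sult2st2, read 8.28, 8.44 and 8.12 in the mixture and 10.19, 10.19 and 9.02 in CPF 0.6, a difference of -1.64 ± 0.35 (adjusted p 0.0855).

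The same order of arrays returned in other genes of this set. The hydrolase gene abhd2b read 6.02, 6.21 and 5.81 in the mixture and 7.95, 7.85 and 6.89 in CPF 0.6, a difference of -1.54 ± 0.30 (limma, adjusted p 0.0855). Calretinin, calb2a, a calcium buffer that labels olfactory sensory neurons in fish, read 8.94, 9.66 and 9.23 in the mixture and 10.98, 11.09 and 9.90 in CPF 0.6, and differed by -1.44 ± 0.30 (adjusted p 0.0855). In both genes the groups did not overlap and CPF 0.6 replicate 3 was the lowest array of its group. The parvalbumin gene pvalb5, another calcium buffer, read 11.95, 12.45 and 12.43 in the mixture against 13.65, 13.86 and 12.87 in CPF 0.6, with a difference of -1.23 ± 0.28 (adjusted p 0.108). Many other genes of their lists did not share this direction. Of 21 measured calcium-binding genes, 11 had a positive and 10 a negative difference, with a median of 0.03. At an unadjusted p under 0.05, 5 (23.8%) were lower and none higher, where the background was 3.85% lower and 2.36% higher. Both calb2a and pvalb5 are among these 5. The lowest member was the parvalbumin gene pvalb8 (-1.48 ± 0.50), without overlap. This list, too, was chosen with earlier results of these data known. The bulb and telencephalon neuron list also holds calb2a, as its lowest member. There 10 of 13 measured genes had a positive difference, with a median of 0.12.

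The smallest p-value of all belonged to ssh2a, a slingshot phosphatase that reactivates the actin-severing protein cofilin. Its arrays read 5.1, 5.23 and 4.99 in the mixture and 6.25, 6.1 and 6.18 in CPF 0.6. The gap between the groups was several times the spread within either, and CPF 0.6 replicate 3 did not stand apart here. The difference was -1.06 ± 0.18 (limma, adjusted p 0.0629), a 2.08-fold lower level in the mixture. The phosphatase gene ptp4a3a (-0.82 ± 0.16), the sterol transport gene gramd1c (-1.11 ± 0.23), the inositol phosphate kinase gene ip6k2b (-0.58 ± 0.12) and the Ras regulator rasal2 (-0.59 ± 0.13) followed, all at an adjusted p of about 0.086. Among these 4 genes only gramd1c overlapped between the groups, since CPF 0.6 replicate 3 at 4.74 lay below mixture replicate 2 at 4.82.

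**Figure D1:**
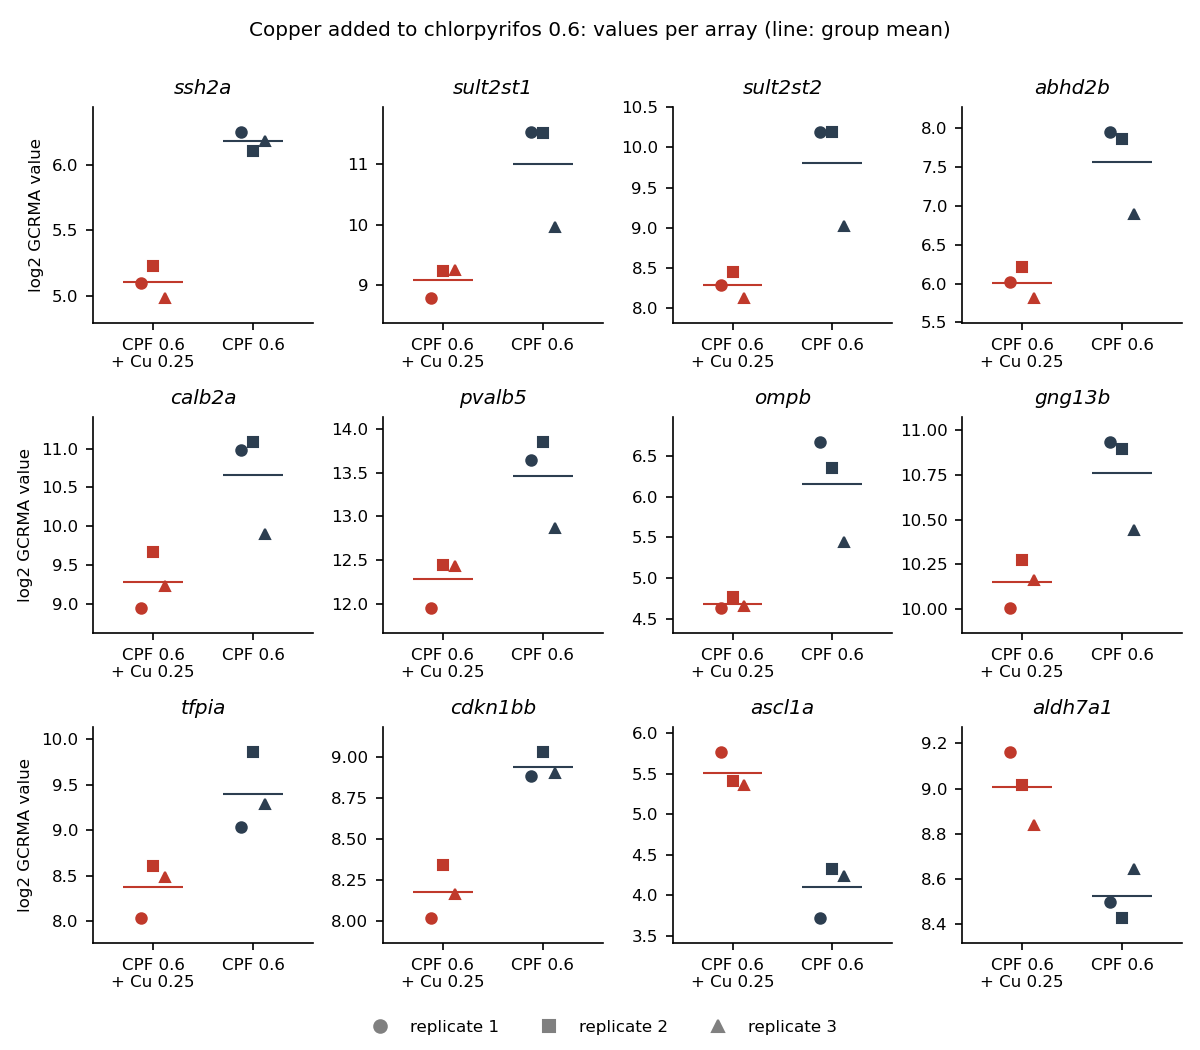
Log2 values (vertical axis, one scale per gene) of 12 genes in each mixture array (red, left) and each CPF 0.6 array (dark, right), with the group mean as a line and the marker shape giving the replicate. In sult2st1, calb2a, pvalb5 and ompb the triangle of CPF 0.6 replicate 3 is the lowest of its group, whereas in ssh2a and cdkn1bb the 3 CPF 0.6 arrays lie close together.

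Of 18 listed markers of olfactory sensory neurons, only 2 had a named probe set on the array, ompb and s100z, and both lay above the filter. The level of the others is therefore unknown. Olfactory marker protein, ompb, made by mature olfactory sensory neurons, read 4.63, 4.77 and 4.66 in the mixture and 6.68, 6.36 and 5.45 in CPF 0.6. The groups did not overlap, and the difference was -1.59 ± 0.39 (limma, adjusted p 0.179). In tissue RNA of this kind, fewer cells of a type and less RNA in each cell cannot be told apart. The G protein gamma subunit gene gng13b, part of odour signalling, averaged 10.15 ± 0.14 in the mixture and 10.76 ± 0.27 in CPF 0.6 (SD, n = 3 each) without overlap, a difference of -0.68 ± 0.17 (adjusted p 0.184). It belongs to a list of 11 measured olfactory transduction genes, of which 5 had a positive and 6 a negative difference, with a median of -0.05. At an unadjusted p under 0.05, 4 of the 11 (36.4%) were lower and none higher, where the background on the lower side was 3.85%, and without the batch term the median was 0.03. Both ompb and gng13b are among these 4, so the count adds in part to genes already given. The list was also chosen with earlier results of these data known. The calcium-binding gene s100z read 9.30, 10.18 and 10.40 against 11.38, 11.81 and 10.24, and here CPF 0.6 replicate 3 lay inside the range of the mixture (difference -1.15 ± 0.40, adjusted p 0.44).

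The 6 odorant receptor genes above the filter were listed after the data were seen. A receptor that is weak in most arrays passes the filter through the group where it is high, so the values are given singly and no count or median is drawn from them. The gene or42c4 read 2.92, 2.84 and 2.85 in the mixture and 4.57, 4.73 and 2.90 in CPF 0.6 (-1.23 ± 0.34, limma adjusted p 0.248). Both or42c4 and or42c1 (-0.94 ± 0.29) showed a plain split: CPF 0.6 replicates 1 and 2 were high, while replicate 3 was level with the mixture. The differences were -0.53 ± 0.20 in or42e1, -0.35 ± 0.11 in or30bw1, -0.28 ± 0.23 in or42d1 and -0.12 ± 0.34 in or70a2. In or42e1, too, CPF 0.6 replicate 3 was level with the mixture, at 3.34 against 3.33 in mixture replicate 3. Several of these values lie under the filter of 4, where arrays of this type hardly separate weak from absent transcripts.

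Leaving out CPF 0.6 replicate 3 brought 43 probe sets past an adjusted p of 0.05, 39 of them lower in the mixture. The named genes among them included sult2st1 (-2.42 ± 0.35), calb2a (-1.80 ± 0.29), abhd2b (-1.86 ± 0.30), pvalb5 (-1.50 ± 0.28), ompb (-1.94 ± 0.41) and gng13b (-0.82 ± 0.17). In these genes replicate 3 was the CPF 0.6 array nearest the mixture. Leaving it out widens their differences in itself, so these calls are no separate support. Nothing in the labels sets this array apart, and its place in its group was not tested.

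The 18 arrays at chlorpyrifos 0, 0.1 and 0.25 ask the same question of copper without sharing an array with the pair: 9 arrays with copper 0.25 against 9 without, averaged over the 3 chlorpyrifos levels. The fit used a common estimate of the spread and of the batch terms. In those arrays 474 probe sets passed (4.5%), of which 258 were higher (2.45%) and 216 lower (2.05%) with copper. That count moved with the arrays used: it was 167 without title batch 3, 0 within batch 1 and 11 within batch 2. With 1 array left out it ran from 243 without CPF 0.25 + Cu 0.25 replicate 2 to 751 without Cu 0.25 replicate 3. Of the 216 that fell with copper there, 195 (90.3%) were also lower in the mixture than in CPF 0.6, with a median difference of -0.32 against -0.50 in the 18 arrays. All 3 mixture arrays were below all 3 CPF 0.6 arrays in 83 of the 216 (38.4%), where the background was 5.61%. Of the 258 that rose with copper there, 208 (80.6%) were also higher in the mixture, with a median of 0.14 against 0.33, and 45 (17.4%) had all 3 mixture arrays on top, where the background was 4.54%. Among probe sets that did not pass in the 18 arrays, 58.7% had the same sign in both comparisons. In the 18 arrays the copper difference was -1.78 ± 0.21 for sult2st1, -1.56 ± 0.20 for sult2st2, -1.57 ± 0.17 for abhd2b, -1.41 ± 0.16 for pvalb5 and -1.36 ± 0.17 for calb2a. It was -1.15 ± 0.22 for ompb, -0.96 ± 0.09 for gng13b and -1.63 ± 0.22 for s100z, and all 8 passed there (limma).

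Of the 21 probe sets at an adjusted p under 0.1 in the pair, 17 (81%) had also passed in the 18 other arrays in the same direction. The share over all tested probe sets that passed there was 4.5%. Both comparisons used the same estimate of the spread, so their calls are not fully independent. The remainder of the 21 were tfpia, cdkn1bb, pgp and eipr1. The difference between the copper effect at chlorpyrifos 0.6 and the averaged copper effect at the other levels was tested for every probe set, and none passed (0%). The smallest adjusted p of that test was 0.172, and 509 probe sets (4.83%) had an unadjusted p under 0.05.

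**Figure D2:**
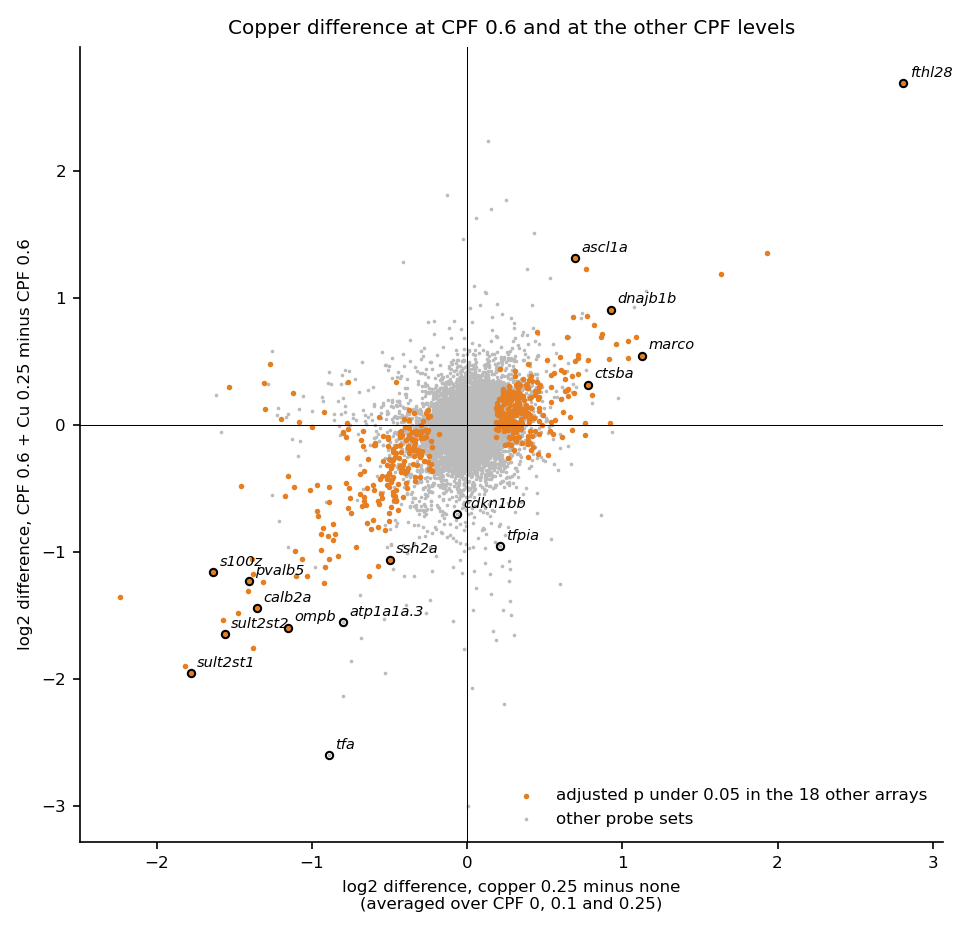
Each point is 1 of 10531 probe sets, with the log2 difference of copper 0.25 minus none averaged over chlorpyrifos 0, 0.1 and 0.25 on the horizontal axis and the difference of the mixture minus CPF 0.6 on the vertical axis. The 474 orange points passed in the 18 other arrays and lie mostly in the lower left and upper right, while tfpia and cdkn1bb lie near 0 horizontally and below 0 vertically.

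The gene tfpia, which encodes tissue factor pathway inhibitor, a brake on the start of blood clotting, had the smallest p in the test between copper effects. It read 8.03, 8.61 and 8.48 in the mixture and 9.04, 9.86 and 9.28 in CPF 0.6. The groups did not overlap, and the difference was -0.95 ± 0.19 (limma, adjusted p 0.0855). A second probe set of the gene gave -1.15 ± 0.35. In the 18 other arrays the copper difference was 0.21 ± 0.11 (adjusted p 0.267), and the difference between both copper effects was -1.17 ± 0.21 (unadjusted p 1.63e-05, adjusted p 0.172). Group means with copper 0.25 were 8.57 at chlorpyrifos 0, 8.67 at 0.1, 8.75 at 0.25 and 8.37 at 0.6, and without copper they were 8.17, 8.63, 8.66 and 9.39 in the same order of chlorpyrifos levels. In the mixture the difference from the untreated control was 0.20 (adjusted p 0.752). In CPF 0.6 tfpia was the single probe set that passed against the control (0.0095% of those tested), with a rise of 1.16, from arrays that are also part of the pair.

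A profile alike in part was that of cdkn1bb, a cyclin-dependent kinase inhibitor of the p27 type, which holds cells out of the division cycle. It read 8.02, 8.34 and 8.16 in the mixture and 8.89, 9.03 and 8.90 in CPF 0.6, a difference of -0.70 ± 0.14 (limma, adjusted p 0.0855). The 3 CPF 0.6 arrays were close together and well above the mixture. Within title batch 1 the difference was -0.73 and within batch 2 it was -0.69. With copper 0.25 the group means were 8.39, 8.30, 8.31 and 8.17 at chlorpyrifos 0, 0.1, 0.25 and 0.6, and without copper they were 8.13, 8.43, 8.71 and 8.94. The copper difference in the 18 other arrays was -0.07 ± 0.08, and the difference between copper effects was -0.63 ± 0.16 (unadjusted p 0.000851, adjusted p 0.719). That average joined unlike values: 0.26 at chlorpyrifos 0, -0.13 at 0.1 and -0.33 at 0.25. Unlike tfpia, cdkn1bb was thus lower with copper at 0.25 as well. A weaker probe set of cdkn1bb gave -0.30 ± 0.13 in the pair. The gene bzw1b had a smaller p than cdkn1bb in the test between copper effects (-0.99 ± 0.20, limma unadjusted p 7.35e-05, adjusted p 0.387). It differed by -0.68 ± 0.18 in the pair, without overlap, and by 0.31 ± 0.10 in the 18 other arrays. Further genes with a smaller p than cdkn1bb in that test were s100a10b (-1.11 ± 0.27), zbtb8a (0.46 ± 0.12) and med7 (0.39 ± 0.10), none past the adjusted threshold. For s100a10b the difference was -0.87 ± 0.24 in the pair and 0.25 ± 0.14 in the 18 other arrays.

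The gene with the smallest p among those higher in the mixture was ascl1a, a proneural transcription factor active in dividing precursors of neurons. It read 5.77, 5.40 and 5.36 in the mixture and 3.72, 4.33 and 4.24 in CPF 0.6. The groups were more than a log2 unit apart, and the difference was 1.32 ± 0.28, a 2.49-fold higher level (limma, adjusted p 0.0855). The CPF 0.6 values lay near the filter of 4, where weak and absent transcripts hardly separate, so the fold is uncertain. In the 18 other arrays ascl1a rose by 0.69 ± 0.16 with copper (adjusted p 0.0145). Its group means with copper 0.25 were 5.62, 5.69, 5.40 and 5.51 at chlorpyrifos 0, 0.1, 0.25 and 0.6, and without copper 5.02, 4.59, 4.89 and 4.1. The difference between the copper effects, 0.62 ± 0.32, had an unadjusted p of 0.063.

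**Figure D3:**
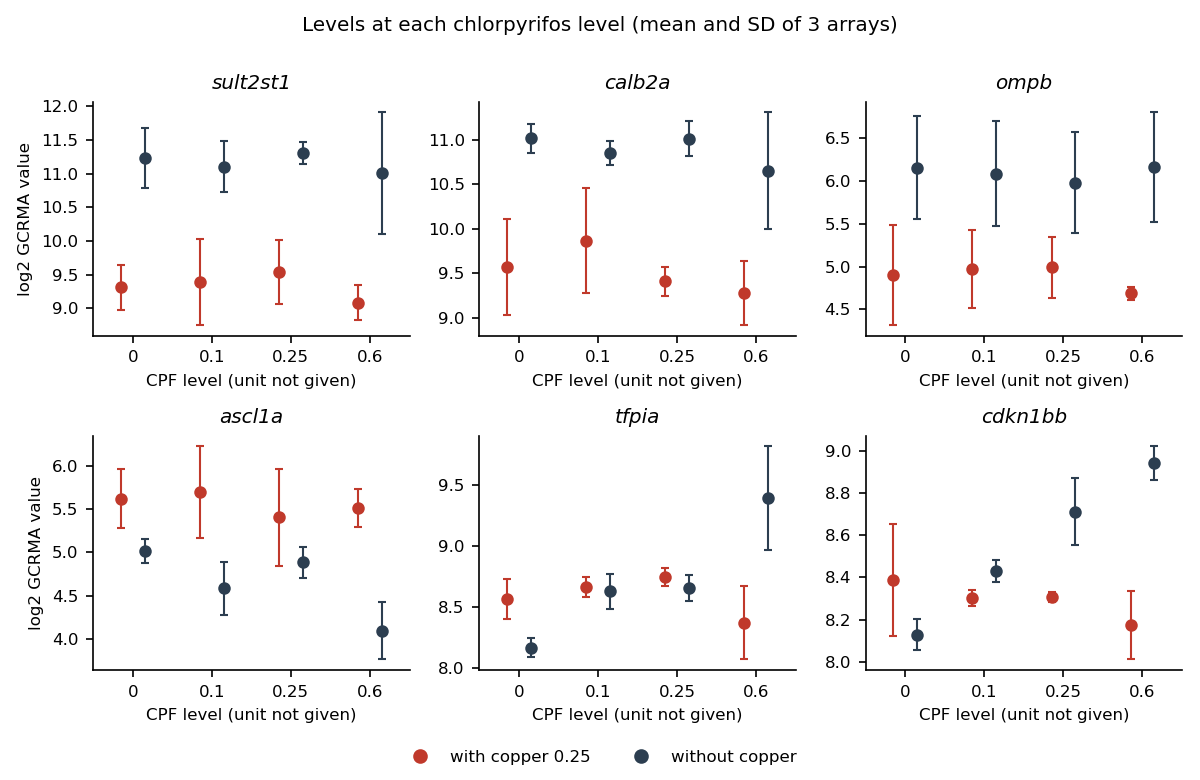
Mean log2 value and SD of 3 arrays (vertical axis) at each chlorpyrifos level (horizontal axis, unit not given), with copper 0.25 in red on the left of each pair and without copper in dark on the right. The red points of sult2st1, calb2a and ompb lie below the dark ones at every level, those of ascl1a lie above, and in tfpia and cdkn1bb the red point is well below the dark one at 0.6, at 8.37 against 9.39 and at 8.17 against 8.94. In cdkn1bb the red point is also lower at 0.25, at 8.31 against 8.71.

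Genes of cell division were mostly on the higher side in the mixture, relative to CPF 0.6. Of 45 measured cell cycle and DNA replication genes, 34 had a positive difference, with a median of 0.19, where 53.2% of all probe sets had a positive difference. At an unadjusted p under 0.05, 8 (17.8%) were higher and 1 (2.22%) lower, where the background was 2.36% on the higher and 3.85% on the lower side. None passed the adjusted threshold. All 3 mixture arrays were above all 3 CPF 0.6 arrays in 11 of the 45 (24.4%), where the background was 4.54%. Without the batch term the median was 0.11. Against the untreated control the list's median was 0.0007 in the mixture and -0.23 in CPF 0.6, values that use the same arrays as the pair. The dUTPase gene dut, which keeps uracil out of DNA, read 7.24, 7.80 and 6.95 in the mixture and 6.57, 6.81 and 6.16 in CPF 0.6 (0.86 ± 0.25, limma adjusted p 0.305). The replication clamp gene pcna read 9.31, 9.75 and 9.52 against 8.96, 9.24 and 9.12 (0.48 ± 0.16), and the DNA ligase gene lig1 read 5.96, 5.97 and 5.82 against 5.43, 5.30 and 5.71 (0.48 ± 0.17). The groups did not overlap in any of these 3 genes. The helicase gene mcm2 differed by 0.79 ± 0.38 and the cyclin gene ccnd1 by 0.52 ± 0.23. In the 18 other arrays 6 of the 45 rose with copper and none fell, where 2.45% of all probe sets rose and 2.05% fell. Among the 6 were dut (0.69 ± 0.14), pcna (0.39) and mcm2 (0.81 ± 0.21). The gene lists were chosen with earlier results of these data known, so such list counts are not independent support. The one list member on the lower side at an unadjusted p under 0.05 was cdkn1bb, an inhibitor of division.

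Proteasome subunit genes had small differences of almost a single sign. The proteasome is the protein complex that degrades proteins tagged with ubiquitin. Of 46 measured subunit and accessory genes, 43 had a positive difference, with a median of 0.20 and a range of -0.07 to 0.43, and 11 (23.9%) had an unadjusted p under 0.05, where the background on the higher side was 2.36%. None passed the adjusted threshold. All 3 mixture arrays were on top in 17 of the 46 (37%), where the background was 4.54%. The core subunit gene psmb7 read 9.67, 9.54 and 9.58 in the mixture and 9.14, 9.04 and 9.38 in CPF 0.6 (0.43 ± 0.13, limma adjusted p 0.314). Other core subunit genes without overlap were psmb3 (0.32 ± 0.11) and psma5 (0.27 ± 0.11). In the 18 other arrays 27 of the 46 rose with copper and none fell, with a median of 0.27, where 2.45% of all probe sets rose. This list, too, was chosen with earlier results of these data known. With the array medians set equal, the median in the pair was 0.18, and without the batch term it was 0.17.

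Stress chaperones and iron storage were uneven between arrays. Over 35 heat shock genes the median difference was 0.08. At an unadjusted p under 0.05, 1 (2.86%) was higher and 2 (5.71%) lower, near the background of 2.36% higher and 3.85% lower. The inducible chaperone gene hsp70.3 read 5.94, 7.89 and 7.81 in the mixture and 7.51, 5.5 and 5.02 in CPF 0.6, so that CPF 0.6 replicate 1 was near the high mixture arrays and mixture replicate 1 near the low CPF 0.6 arrays (1.35 ± 0.88, limma adjusted p 0.919). The ferritin heavy chain gene fthl28, of the iron-storing family, split the arrays in the same way: 9.70, 11.61 and 11.39 in the mixture and 11.62, 6.47 and 7.11 in CPF 0.6 (2.70 ± 1.27, adjusted p 0.79). The cochaperone gene dnajb1b read 5.61, 6.39 and 6.2 against 5.92, 5.33 and 4.79 (0.91 ± 0.29, adjusted p 0.375). All 3 rose with copper in the 18 other arrays, by 1.93 ± 0.50, 2.81 ± 0.72 and 0.92 ± 0.17 in the order hsp70.3, fthl28 and dnajb1b.

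Most of the measured immediate early genes, which cells switch on within minutes of a stimulus, had lower values in the mixture. Of 47 measured immediate early genes, 38 had a negative difference, with a median of -0.26, and 11 (23.4%) were lower and none higher at an unadjusted p under 0.05, where the background on the lower side was 3.85%. None passed the adjusted threshold. All 3 mixture arrays were below all 3 CPF 0.6 arrays in 13 of the 47 (27.7%), where the background was 5.61%. The transcription factor gene klf9, which glucocorticoids induce in vertebrates, read 10.69, 10.56 and 10.31 in the mixture and 11.79, 11.46 and 11.28 in CPF 0.6 (-1.10 ± 0.29, limma adjusted p 0.21). Both sgk1, a kinase gene of the same hormone response, at 8.61, 9.11 and 8.73 against 9.34, 9.33 and 9.43 (-0.55 ± 0.15), and the AP-1 subunit gene jun, at 7.89, 8.37 and 7.74 against 8.71, 9.17 and 8.74 (-0.93 ± 0.25), had no overlap.

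The cochaperone gene fkbp5, a glucocorticoid receptor partner that sits in the heat shock list, read 10.88, 11.43 and 11.03 in the mixture and 12.20, 11.92 and 12.11 in CPF 0.6 (-0.97 ± 0.25, limma adjusted p 0.198). In that list 22 of 35 measured genes had a positive difference. No list of glucocorticoid response genes was set up, and a shift in that response was not tested. The kinase phosphatase gene dusp1 differed by -0.86 ± 0.28. In the 18 other arrays 9 of the 47 immediate early genes fell with copper and none rose, where 2.05% of all probe sets fell. This list was also chosen with earlier results known. Among the 9 were klf9 (-0.57 ± 0.16) and dusp1 (-0.94 ± 0.16), while sgk1, jun and fkbp5 did not pass there, at -0.26, -0.34 and -0.37. Against the untreated control the list's median was 0.03 in the mixture and 0.28 in CPF 0.6, values that use the same arrays as the pair. The feedback inhibitors of cytokine signalling socs1a and socs3a were lower in all 3 mixture arrays than in any CPF 0.6 array, by -1.05 ± 0.41 and -0.81 ± 0.35, and both fell with copper in the 18 other arrays, by 0.89 ± 0.23 and 0.93 ± 0.20.

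**Figure D4:**
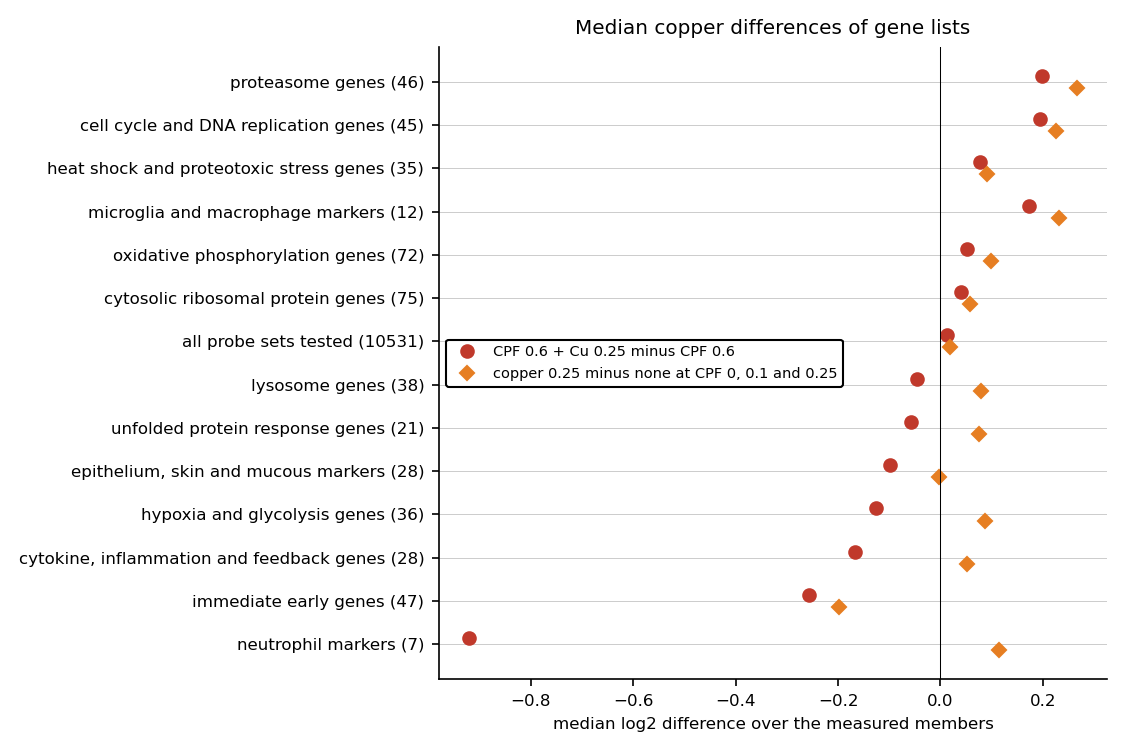
Median log2 difference (horizontal axis) over the measured members of 13 gene lists and over all tested probe sets, with the number of members in brackets. Red circles show the mixture minus CPF 0.6 and orange diamonds copper 0.25 minus none in the 18 other arrays. The 2 symbols lie within 0.1 of each other in the proteasome, cell cycle and immediate early lists, and apart in the neutrophil list, at -0.92 and 0.11.

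The neutrophil list stood at -0.92 in the pair and at 0.11 in the 18 other arrays. All 7 measured genes had a negative difference, where 53.2% of all probe sets had a positive one. At an unadjusted p under 0.05, 4 of the 7 (57.1%) were lower, where the background was 3.85%, and none passed the adjusted threshold. The oxidase subunit gene ncf1 read 6.15, 6.49 and 6.65 in the mixture and 6.66, 8.87 and 7.22 in CPF 0.6 (-1.09 ± 0.44, limma adjusted p 0.627). The granule proteoglycan gene srgn averaged 8.44 ± 0.21 in the mixture and 9.36 ± 0.78 in CPF 0.6 (SD, n = 3 each; difference -0.92 ± 0.26), and the transcription factor gene cebpb, which is also an immediate early gene, read 7.48, 7.46 and 6.83 against 7.56, 9.32 and 8.95 (-1.41 ± 0.42). In these genes CPF 0.6 replicates 2 and 3 were high and replicate 1 was close to the mixture. The collagenase gene mmp13a was at 8.27 in CPF 0.6 replicate 3 and between 3.74 and 5.34 in the other 5 arrays. These sizes rested on single arrays: without CPF 0.6 replicate 2 the difference was -0.45 in ncf1 and -0.52 in srgn, and without CPF 0.6 replicate 3 it was -0.34 in mmp13a, against -1.65 with all arrays. On the linear scale the summed level of the list ran between 1064 and 1455 in the mixture and between 1288 and 3601 in CPF 0.6. The defining neutrophil peroxidase gene mpx lay under the filter. Against the untreated control the list's median was -0.10 in the mixture and 0.88 in CPF 0.6.

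In some genes of the epithelial list CPF 0.6 replicates 2 and 3 were also the high arrays. Of 28 measured genes, 8 (28.6%) were lower and 1 (3.57%) higher in the mixture at an unadjusted p under 0.05, where the background was 3.85% lower and 2.36% higher, with a median of -0.10. The annexin gene anxa2a read 9.01, 9.26 and 8.98 in the mixture and 8.75, 11.80 and 10.70 in CPF 0.6 (-1.33 ± 0.40, limma adjusted p 0.329). Its binding partner gene s100a10b read 10.37, 10.54 and 10.28 against 10.58, 11.82 and 11.59 (-0.87 ± 0.24), and the keratin gene krt18a.1 read 10.72, 11.08 and 10.61 against 10.83, 13.18 and 11.86 (-1.16 ± 0.34). CPF 0.6 replicate 1 was at the level of the mixture in all 3. Without that array 17 probe sets passed, all lower in the mixture. They included anxa2a (-2.10 ± 0.23), krt18a.1 (-1.67 ± 0.28), s100a10b (-1.21 ± 0.20), the cell adhesion gene cd44a (-2.15 ± 0.26) and srgn (-1.23 ± 0.25). Leaving out the CPF 0.6 array nearest the mixture widens such differences in itself, so these calls are no separate support.

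Other members of the epithelial list were named after their values were seen. The adherens junction gene cdh1 (E-cadherin) read 8.81, 9.92 and 9.59 in the mixture and 10.12, 10.91 and 10.12 in CPF 0.6 (-0.86 ± 0.23, limma adjusted p 0.221). With 1 array left out its difference ran from -1.06 to -0.56, the smallest without CPF 0.6 replicate 2. The claudin genes cldni (-0.58 ± 0.18) and cldnb (-0.51 ± 0.19), whose proteins seal tight junctions, had no overlap between the groups either. Over all alternatives the smallest differences were -0.22 in cldni and -0.23 in cldnb. In the 18 other arrays none of these 3 passed, at 0.12, -0.05 and 0.02. The gene agr2, needed for mucin folding in mucous cells, was higher in the mixture, at 9.49, 10.34 and 10.07 against 8.33, 8.94 and 8.99 (1.23 ± 0.37, adjusted p 0.311), and it rose by 0.77 ± 0.21 in the 18 other arrays. The sodium pump subunit gene atp1a1a.3, abundant in ion-transporting cells, read 7.20, 8.85 and 8.77 in the mixture and 9.90, 10.19 and 9.38 in CPF 0.6 (-1.55 ± 0.47, adjusted p 0.313), and the subunit gene atp1b1a differed by -0.65 ± 0.17. Of 26 measured ion transport genes, 16 had a positive and 10 a negative difference, with a median of 0.03. At an unadjusted p under 0.05, 3 (11.5%) were lower and none higher, where the background was 3.85% lower and 2.36% higher.

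Some genes stood apart in a single array. The transferrin gene tfa, made mostly in liver, was at 11.78 in CPF 0.6 replicate 2 and between 4.25 and 5.37 in the other 5 arrays of the pair. Of 13 measured liver genes, 6 had a positive and 7 a negative difference, with a median of -0.01. At an unadjusted p under 0.05, 3 (23.1%) were higher and 2 (15.4%) lower, where the background was 2.36% higher and 3.85% lower. The summed linear level of the 13 ran between 6877 and 10586 in the mixture and between 6671 and 9903 in CPF 0.6. Their mean log2 value, in contrast, ran from 6.11 to 6.59 in the mixture and from 6.06 to 7.01 in CPF 0.6. Over 9 measured pancreas genes it ran from 4.53 to 5.08 and from 4.48 to 6.11. CPF 0.6 replicate 2 belongs to the 4 arrays high in liver or pancreas genes that an alternative fit left out. The acute phase gene saa (serum amyloid A) was at 12.39 in the same array, at 6.51 in CPF 0.6 replicate 3 and between 4.65 and 5.57 elsewhere. The fibronectin gene fn1a was at 7.55 in that array and between 4.07 and 4.42 elsewhere. The photoreceptor gene gngt1 was at 3.64 in CPF 0.6 replicate 3, against 8.86, 8.12 and 8.52 in the mixture and 7.12 and 8.60 in the other 2 arrays of CPF 0.6. None of these passed between the groups with all arrays in the fit. Within title batch 2, which holds 1 array of each group, tfa (-7.53, limma adjusted p 0.0218) and fn1a (-3.40, adjusted p 0.00237) passed, with the spread taken from the other groups. The part they played in other differences was not tested. Without CPF 0.6 replicate 2 no probe set passed between the mixture and CPF 0.6 in limma, and 372 had an unadjusted p under 0.05.

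**Figure D5:**
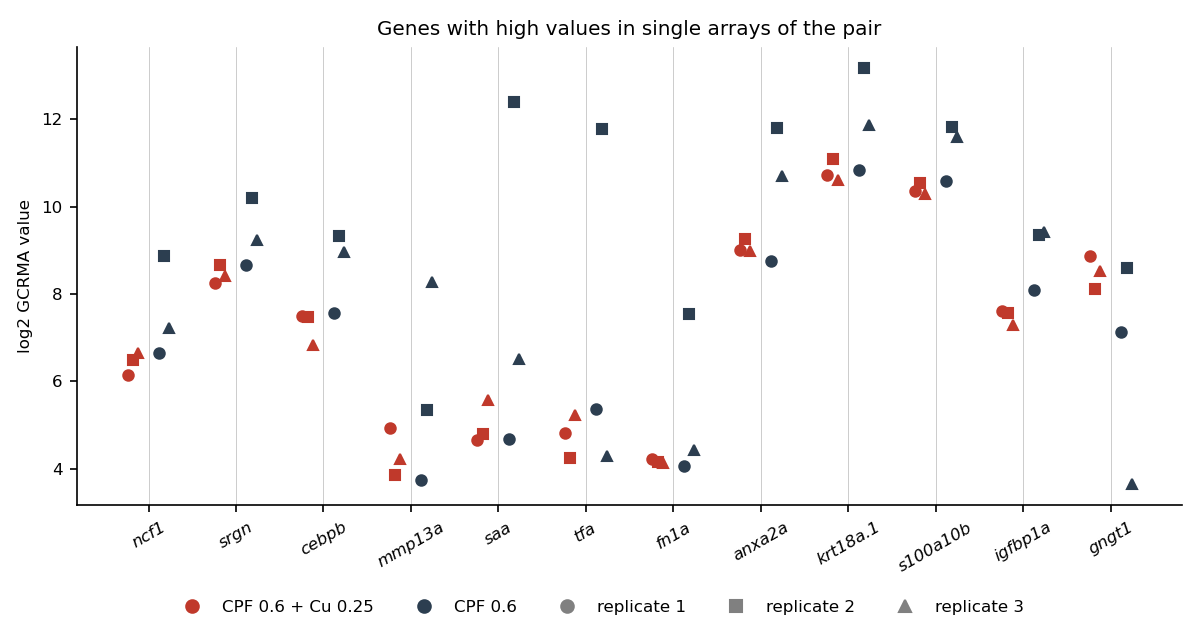
Log2 values (vertical axis) of 12 genes in the mixture arrays (red, left) and the CPF 0.6 arrays (dark, right), with the marker shape giving the replicate. The square of CPF 0.6 replicate 2 is highest in saa, tfa and fn1a, replicates 2 and 3 are above the mixture in anxa2a and cebpb, and replicate 3 is lowest in gngt1.

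For some genes that passed in the 18 other arrays, the difference in the pair was smaller in size. Genes that passed there tend to have overstated differences there, so a smaller value in the pair can come from the choice alone. The test between copper effects carries the same limit for these genes. The lysosomal protease gene ctsba (cathepsin B) read 11.25, 11.39 and 10.96 in the mixture and 10.80, 11.02 and 10.80 in CPF 0.6, a difference of 0.32 ± 0.15 (limma, adjusted p 0.765) beside a rise of 0.78 ± 0.08 in the 18 arrays. For ctsd (cathepsin D) the values were -0.09 ± 0.11 in the pair and 0.33 ± 0.06 in the 18 arrays. The test between the copper effects gave -0.46 ± 0.17 for ctsba (unadjusted p 0.0126) and -0.43 ± 0.12 for ctsd (unadjusted p 0.0021), neither of which passed after adjustment. The macrophage receptor gene marco differed by 0.55 ± 0.32 in the pair and rose by 1.13 ± 0.18 in the 18 arrays, and the complement gene c1qc differed by 0.53 ± 0.26 and rose by 1.04 ± 0.15. The flow-responsive factor gene klf2a differed by -0.48 ± 0.42 in the pair and by -1.45 ± 0.24 in the 18 arrays. Outside this set stands the acetylcholinesterase gene ache, whose product chlorpyrifos targets and which did not pass in the 18 arrays. Its values were 7.38, 7.73 and 7.72 in the mixture and 7.39, 6.68 and 7.43 in CPF 0.6 (0.41 ± 0.30, adjusted p 0.948).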

How the data were processed

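Deposited values were log2 expression on Affymetrix zebrafish arrays, made by the authors with GCRMA, per the submitters' processing notes; the genome build and the version are not given in the sources used here. GCRMA corrects background by probe sequence, normalises arrays to one distribution and summarises probes, so a loss or gain shared by most genes would not show. Array control probe sets (115) were left out, and 10531 of 15502 others were kept (log2 above 4 on 3 or more of 30 arrays). Of the 15502, 10795 had 1 gene symbol in the platform annotation, 135 had several and 4572 had none.

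All 30 arrays were fitted with limma 3.58.1 in R 4.3.3 (10 groups, title batch as a term, 18 residual degrees of freedom), and p-values were Benjamini-Hochberg adjusted over all 10531. The fit was checked on simulated data with independent normal noise and planted changes. Those data held no batch shifts and no outlying arrays, so the check does not cover either. Precision is limited by 3 arrays a group. For single values, 3 arrays against 3 cannot give an exact permutation p below 0.1, so none is given. Genes were drawn for naming from the 12 smallest p-values each way with 1 symbol (those past the threshold first), the member of each gene list with the smallest p, a set of genes known from these data, and the 5 smallest p-values between copper effects. Not all of these are given above. Other list members, and genes singled out by single arrays or by a left-out array, were named after their values were seen. The members, genes and lists were chosen with earlier results of these data known, and the odorant receptor list was added after the data were seen. One probe set stood for a gene in a list, the one with the highest mean. Alternatives were the batch term, the filter, the scaling, the prior, array weights, single batches, the pair alone, 4 arrays high in liver or pancreas genes left out, and each replicate left out.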

Additional observations from a re-analysis of the deposited data

How the results depend on the processing

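The count of 0 probe sets past the threshold in the pair became 17 without the batch term, 18 with the batch as a random block, 128 with array weights, 20 within title batch 2, 1 with the filter at 6, 1 with median centring and 21 at an adjusted p of 0.1, the last chosen after seeing the data. It ran from 0 to 43 with single replicates left out (43 without CPF 0.6 replicate 3, 17 without CPF 0.6 replicate 1), and stayed 0 under the other alternatives. The count of 474 for copper at the other chlorpyrifos levels was 167 without title batch 3, 0 within batch 1, 11 within batch 2, and 243 to 751 with single replicates left out (lowest without CPF 0.25 + Cu 0.25 replicate 2, highest without Cu 0.25 replicate 3; 247 without Control replicate 1, 295 without Cu 0.25 replicate 2, 309 without CPF 0.1 + Cu 0.25 replicate 2 and 314 without CPF 0.25 replicate 2). The test between copper effects, with 0 calls, gave 16 within batch 2 and 0 to 16 with single replicates left out (16 without CPF 0.6 replicate 1). The cause of these shifts was not tested. Of 83 genes followed, 79 kept their sign under every alternative. The sign turned in tfa within batch 1 (0.39), or70a2 within batch 1 (0.22), without 4 arrays high in liver or pancreas genes (0.14) and without CPF 0.6 replicate 2 (0.18, in a range of -0.43 to 0.18), gngt1 within batch 2 (-0.48) and ctsd without those 4 arrays (0.0046). No paired analysis was possible because the replicate numbers follow the order of the samples and pair no arrays across groups. Single-batch values rest on 1 to 2 arrays a group, so their spread is taken from the other groups, and array weights gave CPF 0.6 replicate 1 a weight of 3.17, the highest in the pair.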

Other observations

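Other gene groups were also compared between the mixture and CPF 0.6, and none of their members passed the adjusted threshold in limma. Of 17 neuropeptide genes, 16 had a positive difference, with a median of 0.09, where 53.2% of all probe sets had a positive one. Without the batch term 11 of the 17 were positive, with a median of 0.04. The gonadotropin-releasing hormone gene gnrh3 read 8.31, 7.33 and 8.10 in the mixture and 6.92, 6.76 and 7.11 in CPF 0.6 (0.84 ± 0.42, adjusted p 0.814), although a weaker probe set of the gene gave -0.34 ± 0.39. The neuropeptide FF-like gene npffl read 9.0, 8.49 and 9.06 against 7.55, 7.96 and 8.06 (0.88 ± 0.45, adjusted p 0.82). In both genes the main probe set had no overlap between the groups.

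Of 36 hypoxia and glycolysis genes, 25 had a negative difference, with a median of -0.13, and 6 (16.7%) were lower and none higher at an unadjusted p under 0.05, where the background on the lower side was 3.85%. The insulin-like growth factor binding protein gene igfbp1a read 7.60, 7.57 and 7.29 in the mixture and 8.09, 9.34 and 9.42 in CPF 0.6 (-1.53 ± 0.60), and the glycolysis regulator pfkfb4b read 8.63, 8.67 and 8.54 against 9.41, 9.07 and 9.21 (-0.65 ± 0.25). In the 18 other arrays none of these 36 genes passed, and their median was 0.09. Of 21 unfolded protein response genes, 4 (19%) were lower at an unadjusted p under 0.05, against the same background. Among them were the stress kinase gene eif2ak3 (-0.41 ± 0.13) and chac1 (-0.34 ± 0.11), both of which also fell with copper in the 18 other arrays. There 2 of the 21 passed as lower and none as higher, where 2.05% of all probe sets fell. The list's median was 0.08 there, against -0.06 in the pair. The glutathione transferase gene gsto2 differed by 0.86 ± 0.35. The 72 oxidative phosphorylation genes had a median of 0.05 and the 75 cytosolic ribosomal protein genes one of 0.04, beside 0.01 over all probe sets.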
